A study of Mus musculus with 11 samples.

Results

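Genes of microfold cells, 9 in number, were followed in thymic epithelium of NOD mice carrying the R249C variant of Aire. They were Spib, Sox8, Gp2, Tnfaip2, Ccl9, Ccl6, Marcksl1, Anxa5 and Pglyrp1, chosen by name as regulators and markers of the thymic microfold cell, and all 9 had a row of their own among the 56691 genes of the count table. NOD mice develop autoimmune diabetes spontaneously, and R249C is a missense variant of Aire, the transcriptional regulator that lets medullary thymic epithelium express genes of other tissues. Cells were taken from the thymus of mice aged 4 to 8 weeks, depleted of CD45-positive cells with magnetic beads and sorted for EpCAM, an adhesion protein of epithelia. Mice of 3 genotypes were sequenced on the NOD background: R249C/R249C, with the variant on both copies of Aire (3 libraries), WT/R249C, with 1 variant copy (5 libraries), and WT/WT, with none (3 libraries). Batch A of the labels holds all 3 R249C/R249C libraries, 3 WT/R249C libraries (replicates 1 to 3) and 1 WT/WT library (replicate 1). Batch B holds 2 WT/R249C libraries (replicates 4 and 5) and 2 WT/WT libraries (replicates 2 and 3). For WT/R249C replicates 4 and 5 the title and the genotype field of the labels contradict each other, the field reading R249C/R249C. Both were grouped by title, so batch B has no WT/R249C library with undisputed labels. The sources used here do not state how many mice a library pools, so p-values measure the spread between libraries.

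Microfold cells are epithelial cells over the lymphoid follicles of the gut that carry particles and microbes from the lumen to immune cells beneath. They form when RANK ligand from stromal cells acts on the receptor RANK of epithelial cells and, through noncanonical NF-kB signalling, induces the transcription factors Spi-B and Sox8. In the thymic medulla, cells that resemble differentiated cells of other tissues are called mimetic cells, and the microfold cell is among the types they resemble. RANK signalling is also a main inducer of Aire-expressing medullary epithelium.

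Promoter sequences of Spib, Gp2, Ccl9 and Ccl6 are shown because Spib encodes the regulator, Gp2 the defining surface receptor, and Ccl9 and Ccl6 are neighbouring chemokine genes that are also expressed by myeloid cells. Each runs from 250 bases before to 50 bases after the start of the gene, 5′ to 3′ on the gene's strand, from RefSeq on build GRCm38.p6. Capitals mark the letters of a match to the NF-kB pattern, GGG and CC with any 5 bases between them, or to AGGAAGT, the core bound by PU.1 and Spi-B, on either strand. The stretches are chr7:44532022-44532321 for Spib, chr7:119459223-119459522 for Gp2, chr11:83578587-83578886 for Ccl9 and chr11:83593038-83593337 for Ccl6, all on the minus strand.
Spib: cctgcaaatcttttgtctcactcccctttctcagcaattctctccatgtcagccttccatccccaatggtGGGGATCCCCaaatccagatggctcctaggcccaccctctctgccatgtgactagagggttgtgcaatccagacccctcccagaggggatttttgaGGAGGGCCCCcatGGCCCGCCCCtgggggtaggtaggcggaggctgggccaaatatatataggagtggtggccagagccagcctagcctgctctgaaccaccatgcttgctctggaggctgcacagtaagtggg
Gp2: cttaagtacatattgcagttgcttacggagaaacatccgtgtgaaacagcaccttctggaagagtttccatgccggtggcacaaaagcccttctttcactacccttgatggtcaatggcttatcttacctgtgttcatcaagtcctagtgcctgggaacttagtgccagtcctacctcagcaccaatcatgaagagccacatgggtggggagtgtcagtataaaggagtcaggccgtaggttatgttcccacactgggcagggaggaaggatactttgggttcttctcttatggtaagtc
Ccl9: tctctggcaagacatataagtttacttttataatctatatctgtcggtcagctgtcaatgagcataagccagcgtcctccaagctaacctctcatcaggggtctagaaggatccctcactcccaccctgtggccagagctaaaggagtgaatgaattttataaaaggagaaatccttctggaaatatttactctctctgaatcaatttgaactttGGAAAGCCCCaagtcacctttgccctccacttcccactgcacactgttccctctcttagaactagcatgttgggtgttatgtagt
Ccl6: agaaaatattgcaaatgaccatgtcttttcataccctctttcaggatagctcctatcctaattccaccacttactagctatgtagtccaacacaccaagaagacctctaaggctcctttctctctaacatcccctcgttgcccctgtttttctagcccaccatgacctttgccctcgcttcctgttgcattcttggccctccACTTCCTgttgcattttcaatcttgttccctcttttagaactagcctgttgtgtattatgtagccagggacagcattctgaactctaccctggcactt
The Spib promoter held 1 match to the NF-kB pattern on its own strand and 3 on the other, of which 1 is the same palindromic stretch. Ccl9 held 1 match, and Gp2 and Ccl6 none. Over all 9 genes, 7 promoters held a match, beside 50.8% of the 32851 promoters of this length. AGGAAGT was found in 1 of the 9 promoters, that of Ccl6, where it lies on the other strand, beside 9.35% of all promoters. The SOX letters AACAAT were found in 0 of the 9, beside 10.7% of all promoters. A match is a run of letters and not a shown binding site. The count table carries no coordinates, and its build, mm39 per the submitters' processing notes, is not that of these sequences.

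Total counts per library ran from 60560348 to 182319976, and values are CPM, which are counts scaled to the same total in every library. Reads carry no molecular identifiers, so limits from counts cover counting error only. Aire itself was detected in every library, at 318 to 858 CPM in R249C/R249C, 174 to 769 CPM in WT/R249C and 312 to 768 CPM in WT/WT, and transcript counts cannot check a missense genotype. The epithelial sort marker Epcam lay between 355 and 521 CPM. Of 12 medullary epithelial markers 11 had counts in every library, the exception being Cd86. Markers of other cells were present. Summed over each list, 12 macrophage and monocyte genes gave 99.0 to 351 CPM, 10 neutrophil genes 29.7 to 154 CPM and 8 plasmacytoid dendritic cell genes 163 to 426 CPM. The 8 B cell genes gave 5.78 to 57.1 CPM and 8 thymocyte genes 72.5 to 209 CPM. The 6 endothelial genes gave 72.9 to 337 CPM and 6 fibroblast genes 860 to 2319 CPM. WT/R249C replicate 3 had the fewest counts and the fewest genes with a count (22101), and stood apart on the first principal component, as WT/R249C replicate 5 did on the second.

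Set per length of exon, Marcksl1 and Anxa5 lay above the other 7 genes in every library, and the ranges of those 7 overlapped in part. Marcksl1 (608 ± 82.0 CPM per kb, SD, n = 11) and Anxa5 (575 ± 58.2) were highest and did not differ beyond their spread. Gp2 followed at 38.8 ± 20.3, Spib at 25.2 ± 11.7 and Pglyrp1 at 22.8 ± 11 CPM per kb, again within each other's SD. Tnfaip2 lay at 5.23 ± 2.31 CPM per kb, below Pglyrp1 by more than either SD. The 3 lowest genes overlapped one another, with Ccl9 at 1.53 ± 1.20, Ccl6 at 1.46 ± 1.68 and Sox8 at 1.04 ± 0.938 CPM per kb. Exon lengths came from GENCODE M21, an older annotation than the one behind the counts.

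**Figure D1:**
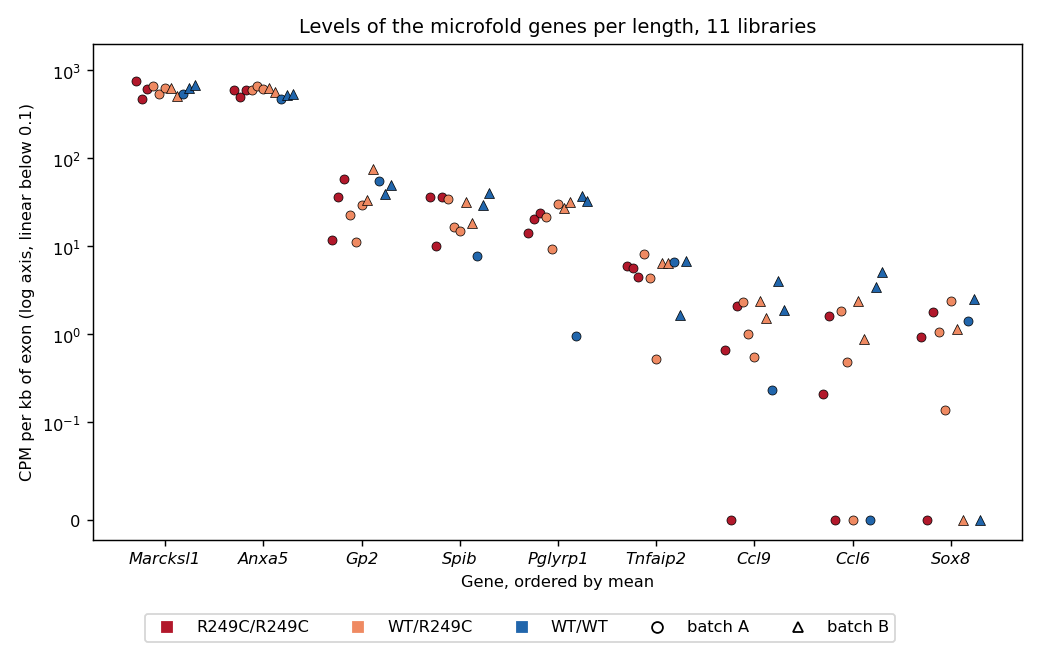
Level of each microfold gene in CPM per kb of exon (log axis, linear below 0.1), 1 point per library (n = 11), coloured by genotype and shaped by batch, ordered by mean. Marcksl1 and Anxa5 lie above the other genes in every library, while Ccl6 and Sox8 are each at 0 in 3 libraries and Ccl9 in 1.

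The relative spread between libraries was smallest in the highest genes, Anxa5 and Marcksl1, and largest in the 3 lowest. Anxa5 and Marcksl1 were among the steadiest genes measured, with coefficients of variation of 10.1% and 13.5% over the 11 libraries, and 99.7% and 98.9% of the 26980 genes tested had a larger one. Tnfaip2 (44.2%), Spib (46.6%), Pglyrp1 (48.3%) and Gp2 (52.3%) lay somewhat under the median gene, at 60.7%. Ccl9 (78.5%), Sox8 (90.3%) and Ccl6 (115%) lay above it. Of these 3 lowest genes, Ccl9 was at 0 counts in R249C/R249C replicate 2 alone, and Ccl6 in 1 library of each genotype. Sox8 was at 0 counts in 1 library of each genotype, including WT/WT replicate 3, the deepest library, where a count of 0 allows up to 0.0165 CPM, and had 968 counts in WT/WT replicate 2.

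Spib, the Ets family factor that drives microfold differentiation, varied widely within each genotype. It was at 104, 29.0 and 105 CPM in R249C/R249C, at 98.1, 47.8, 42.7, 90.7 and 53.7 CPM in WT/R249C, and at 22.4, 85.3 and 115 CPM in WT/WT. R249C/R249C replicate 2 and WT/WT replicate 1 were the lowest libraries, and all 3 genotypes overlapped. Sox8, an HMG box factor that binds the Gp2 promoter in gut microfold cells, was at 2.88, 0 and 5.60 CPM in R249C/R249C, at 3.35, 0.430, 7.45, 3.61 and 0 CPM in WT/R249C, and at 4.46, 7.84 and 0 CPM in WT/WT. Libraries at 0 and libraries above 4 CPM occurred in all 3 genotypes. In the older annotation 329 bases of Sox8 exon and 314 of Tnfaip2 exon overlap a gene on the opposite strand, and whether counting used strand is stated neither in the labels nor in the processing notes.

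Gp2, the receptor for type 1 fimbriae by which microfold cells take up bacteria, and also a major protein of pancreatic zymogen granules, was detected in all 11 libraries. It was at 23.4, 73.8 and 118 CPM in R249C/R249C, at 45.8, 22.2, 59.0, 67.5 and 153 CPM in WT/R249C, and at 112, 79.4 and 98.7 CPM in WT/WT. The WT/WT libraries lay close together, while both variant genotypes held libraries below and above all 3 of them. Tnfaip2, a protein of membrane protrusions and of gut microfold cells, was at 30.0, 28.5 and 22.7 CPM in R249C/R249C, at 40.6, 21.8, 2.61, 32.3 and 32.7 CPM in WT/R249C, and at 33.6, 8.25 and 34.0 CPM in WT/WT. It was low in WT/R249C replicate 3 and WT/WT replicate 2 and lay between 21.8 and 40.6 CPM in the other 9 libraries.

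The chemokines Ccl9 and Ccl6 draw CCR1-bearing leukocytes and are also made by myeloid cells. Their genes lie 9245 bases apart on chromosome 11 in GRCm38. Ccl9, a marker of follicle-associated epithelium, was at 2.01, 0 and 6.42 CPM in R249C/R249C, at 7.15, 3.11, 1.70, 7.34 and 4.68 CPM in WT/R249C, and at 0.710, 12.5 and 5.72 CPM in WT/WT. Ccl6 was at 0.383, 2.93 and 0 CPM in R249C/R249C, at 3.30, 0.869, 0, 4.36 and 1.60 CPM in WT/R249C, and at 0, 6.14 and 9.32 CPM in WT/WT. The 2 highest Ccl6 libraries were WT/WT replicates 2 and 3, both of batch B, while the WT/WT library of batch A had no Ccl6 count. Since Ccl6 was at 0 in 1 library of each genotype, its fitted fold changes carry little information on size.

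Pglyrp1, a peptidoglycan recognition protein that kills bacteria and is also stored in neutrophil granules, was at 26.4, 37.4 and 44.5 CPM in R249C/R249C, at 39.4, 17.4, 55.8, 49.7 and 59.0 CPM in WT/R249C, and at 1.76, 68.8 and 60.2 CPM in WT/WT. WT/WT replicate 1, with 186 counts, stood far below the other 10 libraries, and the other WT/WT libraries were the 2 highest of all. Neutrophil markers were low in that library too, with a sum of 41.7 CPM against 29.7 to 154 CPM over all 11. The 3 libraries with the lowest neutrophil sums, WT/R249C replicate 2 at 29.7 CPM, WT/WT replicate 1 at 41.7 CPM and R249C/R249C replicate 1 at 44.3 CPM, were the 3 with the least Pglyrp1. WT/R249C replicate 3 went the other way, with a nearly equal neutrophil sum of 44.8 CPM and Pglyrp1 at 55.8 CPM. Of the 10 neutrophil genes 6 were at 0 in at least 1 library, and Elane was at 0 in all 11. The part of neutrophils in the Pglyrp1 level was not tested.

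Marcksl1, an actin- and calmodulin-binding protein, was at 1212, 769 and 997 CPM in R249C/R249C, at 1062, 863, 1026, 1018 and 815 CPM in WT/R249C, and at 875, 1005 and 1090 CPM in WT/WT. Anxa5, which binds phosphatidylserine, was at 1070, 892 and 1063 CPM in R249C/R249C, at 1061, 1190, 1097, 1115 and 999 CPM in WT/R249C, and at 852, 924 and 968 CPM in WT/WT. Both are widely expressed outside microfold cells. Anxa5 was the 1 gene of the 9 in which 2 genotypes did not overlap, all 5 WT/R249C libraries lying above all 3 WT/WT libraries. In that comparison 2.93% of all genes tested did not overlap, 1.1% with WT/R249C higher. The share was 8.1% for R249C/R249C against WT/WT and 8.85% for R249C/R249C against WT/R249C in batch A.

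**Figure D2:**
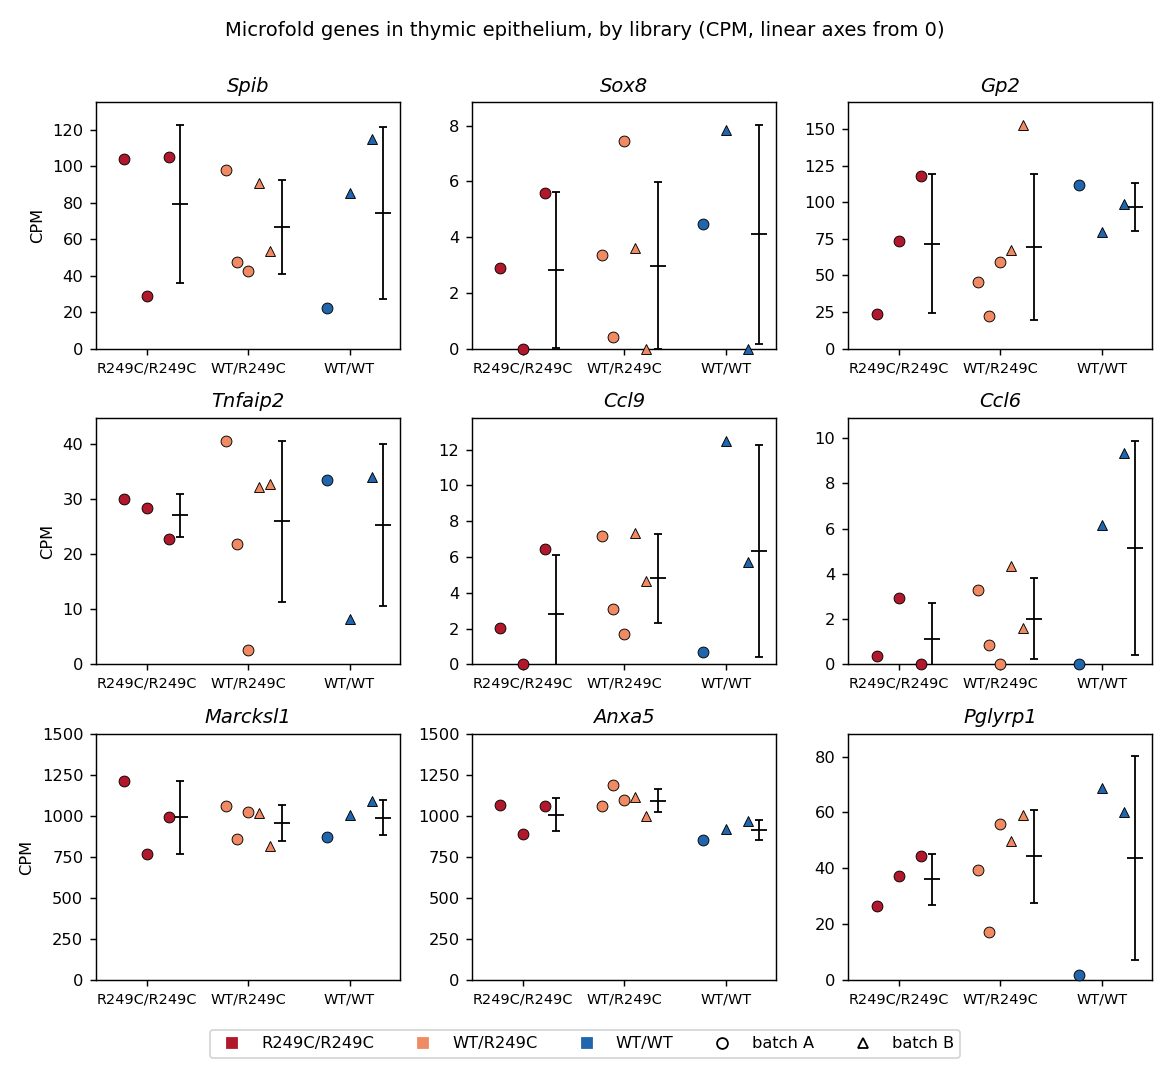
CPM of each microfold gene (linear axes from 0) by genotype, 1 point per library, with circles for batch A and triangles for batch B. Bars give the mean and SD of each genotype (n = 3, 5 and 3) and are cut at 0. The genotypes overlap for every gene other than Anxa5 in WT/R249C against WT/WT, where 2.93% of all genes tested do not overlap. Pglyrp1 in the WT/WT library of batch A lies at 1.76 CPM.

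With both copies of Aire mutated, none of the 9 genes differed from WT/WT beyond the spread between libraries. Spib averaged 79.6 ± 43.8 CPM in R249C/R249C and 74.2 ± 47.3 CPM in WT/WT (SD, n = 3 each), with a batch-adjusted log2 fold change of 0.88 (95% interval -0.95 to 2.70). Gp2 averaged 71.8 ± 47.5 CPM in R249C/R249C and 96.6 ± 16.3 CPM in WT/WT, with a log2 fold change of -0.0072 (-1.57 to 1.56). Anxa5 averaged 1008 ± 101 CPM in R249C/R249C and 915 ± 59.0 CPM in WT/WT (log2 fold change 0.18, -0.19 to 0.55). Marcksl1 averaged 993 ± 221 CPM in R249C/R249C and 990 ± 108 CPM in WT/WT (0.067, -0.47 to 0.61). For these last 2 genes the intervals leave out changes of 2-fold in either direction, while for Spib and Gp2 they do not.

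The largest fitted value belonged to Pglyrp1, at 36.1 ± 9.16 CPM in R249C/R249C and 43.6 ± 36.5 CPM in WT/WT, with a log2 fold change of 1.48 (-1.24 to 4.20). Without the batch term the value was -0.22, and without WT/WT replicate 1 it was -0.16. Tnfaip2 (0.18), Ccl9 (0.26), Ccl6 (0.30) and Sox8 (-1.0) had intervals from -1.94 to 2.31 for Tnfaip2 to -9.09 to 9.69 for Ccl6. Over the 9 genes the median log2 fold change was 0.185, with 7 above 0 and 2 below, beside -0.019 over all 26980 genes tested. edgeR called 0 of the 9 and 0 of 26980 genes (0%) at an adjusted p under 0.05, each of the 9 with an adjusted p of 1. At an unadjusted p under 0.05 it gave 0 of the 9, beside 865 genes (3.21%), and DESeq2 called 0 of the 9, beside 408 of the 25063 genes given an adjusted p (1.63%). The libraries of the 2 genotypes failed to overlap for 0 of the 9 and for 8.1% of all genes (3.42% higher and 4.68% lower in R249C/R249C).

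With 1 variant copy, Anxa5 was the gene of smallest p, and it did not pass either. Anxa5 averaged 1092 ± 70.3 CPM in WT/R249C and 915 ± 59.0 CPM in WT/WT (SD, n = 5 and 3), with a log2 fold change of 0.26 (-0.029 to 0.56) and an edgeR adjusted p of 1. It was higher in 5 of 5 WT/R249C libraries than in any WT/WT library, and higher within batch A (0.35) and within batch B (0.20). The batch B value rests on the libraries with contradicting labels. Without WT/R249C replicate 3 or 5, the libraries that stood apart, the log2 fold change of Anxa5 was 0.28 or 0.33. Among all genes tested the groups did not overlap for 2.93%, with 1.1% higher and 1.83% lower in WT/R249C. By DESeq2 its adjusted p was 0.378.

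Gp2 averaged 69.5 ± 49.7 CPM in WT/R249C and 96.6 ± 16.3 CPM in WT/WT (log2 fold change -0.51, -1.77 to 0.76). Its value was -1.46 within batch A and 0.34 within batch B. Spib averaged 66.6 ± 25.8 CPM in WT/R249C and 74.2 ± 47.3 CPM in WT/WT (0.29, -1.15 to 1.74), with 1.47 within batch A and -0.42 within batch B. Pglyrp1 averaged 44.3 ± 16.8 CPM in WT/R249C and 43.6 ± 36.5 CPM in WT/WT (1.11, -1.08 to 3.31), with 4.35 within batch A and -0.21 within batch B. In batch A these values are set against WT/WT replicate 1 alone, the library lowest in Spib and Pglyrp1. Marcksl1 stood at -0.033 (-0.46 to 0.39), and Tnfaip2, Ccl9, Ccl6 and Sox8 at 0.084, 0.48, 0.26 and -0.78. Without WT/R249C replicate 3, where Tnfaip2 was lowest, its value was 0.36. The median of the 9 was 0.255, with 6 above 0 and 3 below, beside 0.024 over all genes. edgeR called 0 of the 9 and 0 of 26980 genes (0%), with 0 of the 9 and 940 genes (3.48%) at an unadjusted p under 0.05, and DESeq2 called 0 of the 9 beside 274 of 25063 genes (1.09%).

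Between R249C/R249C and WT/R249C, compared in the 6 libraries of batch A, none of the 9 genes passed. Gp2 had the smallest p, with a log2 fold change of 0.80 (-0.71 to 2.31) and an edgeR adjusted p of 1. Its libraries overlapped, at 23.4, 73.8 and 118 CPM in R249C/R249C against 45.8, 22.2 and 59.0 CPM in WT/R249C. Spib stood at 0.36 (-1.11 to 1.84), Pglyrp1 at -0.0031 (-1.08 to 1.07), Anxa5 at -0.11 (-0.54 to 0.32) and Marcksl1 at 0.058 (-0.52 to 0.63). Tnfaip2, Ccl9, Ccl6 and Sox8 stood at 0.31, -0.52, -0.37 and -0.32. edgeR called 0 of the 9 and 0 of 23695 genes (0%), with 0 of the 9 and 256 genes (1.08%) at an unadjusted p under 0.05, and DESeq2 called 0 of the 9 beside 33 of 20971 genes (0.157%). The groups failed to overlap for 0 of the 9 and for 8.85% of all genes (3.45% higher and 5.41% lower in R249C/R249C). In bulk samples fewer microfold cells and less RNA per cell cannot be told apart, here and in the comparisons with WT/WT.

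**Figure D3:**
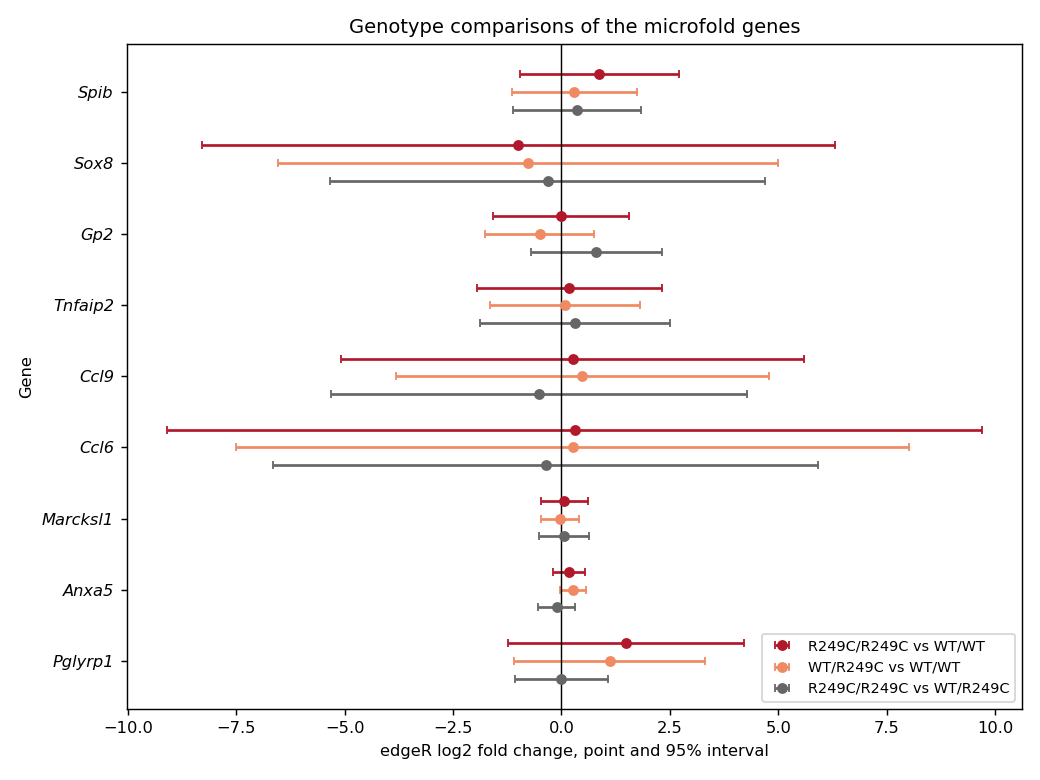
edgeR log2 fold changes (points) with 95% intervals (bars) of the 9 microfold genes for R249C/R249C against WT/WT, WT/R249C against WT/WT and R249C/R249C against WT/R249C. Every interval includes 0, and intervals are narrowest for Anxa5 and Marcksl1 and widest for Ccl6, Sox8 and Ccl9.

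Several of the genes had higher means in batch B than in batch A, and none passed the test. Pglyrp1 averaged 59.4 ± 7.80 CPM in batch B and 31.8 ± 18.1 CPM in batch A (n = 4 and 7), with a genotype-adjusted log2 fold change of 1.75 (-0.31 to 3.80). Ccl6 averaged 5.36 ± 3.24 CPM in batch B and 1.07 ± 1.44 CPM in batch A, and Ccl9 7.55 ± 3.46 CPM in batch B and 3.01 ± 2.76 CPM in batch A. Gp2 averaged 99.6 ± 37.8 CPM in batch B and 64.9 ± 38.9 CPM in batch A, and Spib 86.2 ± 25.2 CPM in batch B and 64.2 ± 36.9 CPM in batch A. Anxa5 averaged 1002 ± 81.4 CPM in batch B and 1032 ± 119 CPM in batch A, and Marcksl1 982 ± 118 CPM in batch B and 972 ± 148 CPM in batch A, within their SD. The 9 genes had a median of 0.741 between batches, with 7 above 0 and 2 below, beside -0.013 over all genes. edgeR called 0 of the 9 and 0 of 26980 genes (0%), with 0 of the 9 and 966 genes (3.58%) at an unadjusted p under 0.05, and DESeq2 called 0 of the 9 beside 199 of 24063 genes (0.827%). The batches failed to overlap for 0 of the 9 and for 0.537% of all genes (0.297% higher and 0.241% lower in batch B).

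The RANK and noncanonical NF-kB axis that induces microfold cells was well expressed on the receiving side. The receptor RANK (Tnfrsf11a) averaged 57.7 ± 38.7 CPM in R249C/R249C, 65.8 ± 32.2 CPM in WT/R249C and 83.6 ± 25.4 CPM in WT/WT. Its decoy receptor Tnfrsf11b, which Spi-B raises in mouse medullary epithelium, averaged 257 ± 150 CPM in R249C/R249C, 264 ± 112 CPM in WT/R249C and 309 ± 126 CPM in WT/WT. The effectors Relb, at 75.0 to 235 CPM, and Nfkb2, at 141 to 313 CPM, were present in all 11 libraries, whereas the ligand Tnfsf11 was at 0 in 9 libraries and nowhere above 0.450 CPM. Of the 12 genes 11 passed the filter on low counts. In each of the 3 genotype comparisons edgeR called 0 of the 11 in either direction. It also called 0 of all genes tested (26980 against WT/WT, 23695 between the variant genotypes), so this count is not particular to the axis. Medians were -0.094 for R249C/R249C against WT/WT, -0.175 for WT/R249C against WT/WT and 0.090 for R249C/R249C against WT/R249C. Over all genes tested they were -0.019, 0.024 and 0.009. The adaptor Traf2 had the smallest p of the list in the first of these, at 107 ± 15.2 CPM in R249C/R249C and 93.1 ± 12.9 CPM in WT/WT (log2 fold change 0.43, edgeR adjusted p of 1). Traf3, which restrains the pathway, had the smallest p for WT/R249C against WT/WT, at 36.9 ± 15.5 CPM in WT/R249C and 53.5 ± 5.88 CPM in WT/WT (-0.53, edgeR adjusted p of 1).

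Of 17 other genes named as microfold markers, all 17 were measured and edgeR called 0 in any comparison, as it called 0 of all genes tested. At an unadjusted p under 0.05 edgeR gave 1, 3 and 0 of the 17 in R249C/R249C against WT/WT, WT/R249C against WT/WT and R249C/R249C against WT/R249C. The shares of all genes were 3.21%, 3.48% and 1.08%. Fabp5, a fatty acid binding protein, averaged 241 ± 101 CPM in WT/R249C and 155 ± 59.0 CPM in WT/WT (0.89, 0.26 to 1.52), and the adhesion molecule Vcam1 410 ± 71.4 CPM in WT/R249C and 267 ± 88.3 CPM in WT/WT (0.73, 0.20 to 1.25), each with an edgeR adjusted p of 1. The actin-binding Tmsb4x averaged 1802 ± 627 CPM in WT/R249C and 1074 ± 471 CPM in WT/WT (1.02). The prion protein Prnp, a microfold receptor in the gut, averaged 885 ± 102 CPM in R249C/R249C and 719 ± 135 CPM in WT/WT (0.44, 0.0090 to 0.87, edgeR adjusted p of 1). These 4 genes are also expressed by many other cells. The list had 14 genes above 0 and 3 below in R249C/R249C against WT/WT (median 0.440), beside 13229 and 13751 of all genes (median -0.019). In WT/R249C against WT/WT it had 13 and 4 (median 0.252), beside 13894 and 13084 (median 0.024). In R249C/R249C against WT/R249C it had 6 and 11 (median -0.133), beside 12027 and 11668 (median 0.009). The groups did not overlap for 2 of the 17 in R249C/R249C against WT/WT, Aif1 and Cxcl16, and for 1 of the 17 in WT/R249C against WT/WT, Aif1, each lower in the variant genotype. Cxcl16, a chemokine, averaged 93.4 ± 9.26 CPM in R249C/R249C and 117 ± 10.6 CPM in WT/WT (log2 fold change -0.21, -0.69 to 0.26, edgeR adjusted p of 1), and was, like Aif1, named after its values were seen. Aif1, a marker shared by microfold cells and macrophages, was at 2.09, 2.97 and 3.92 CPM in R249C/R249C, at 4.67, 2.43, 0.892, 3.68 and 0 CPM in WT/R249C, and at 7.84, 7.42 and 6.20 CPM in WT/WT. Every variant library lay below every WT/WT library, and its log2 fold changes against WT/WT were -1.52 (-5.65 to 2.62) in R249C/R249C and -1.71 (-4.96 to 1.54) in WT/R249C, with an edgeR adjusted p of 1 for each. Non-overlap downward held for 4.68% of all genes in the first comparison and 1.83% in the second. B cell markers summed to 16.3 to 37.9 CPM in R249C/R249C, 5.78 to 57.1 CPM in WT/R249C and 42.6 to 56.1 CPM in WT/WT, and thymocyte markers to 85.5 to 133 CPM in R249C/R249C, 72.5 to 150 CPM in WT/R249C and 145 to 209 CPM in WT/WT. Both sums were lower in every R249C/R249C library than in any WT/WT library. All R249C/R249C libraries are of batch A, while WT/WT spans both batches, and the sums are not adjusted for batch. Fcrla of the B cell list averaged 2.97 ± 3.87 CPM in R249C/R249C and 2.52 ± 2.55 CPM in WT/WT. Within the thymocyte list Cd4 went the other way, at 11.6, 16.2 and 25.4 CPM in R249C/R249C against 2.61, 5.43 and 7.99 CPM in WT/WT. Macrophage and monocyte sums overlapped, at 118 to 302 CPM in R249C/R249C, 99.0 to 295 CPM in WT/R249C and 117 to 351 CPM in WT/WT. The part of any of these cells in the Aif1 values was not tested.

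Spib was low in the same 4 libraries as the summed macrophage and monocyte markers, though not as each of those markers. Those 4 libraries were R249C/R249C replicate 2, WT/R249C replicates 2 and 3 and WT/WT replicate 1. The summed level of 12 macrophage and monocyte genes lay between 99.0 and 118 CPM in them and between 199 and 351 CPM in the other 7, and Spib between 22.4 and 47.8 CPM against 53.7 to 115 CPM. Some genes outside the macrophage list divided in the same way. Foxn1 lay at 58.1 to 132 CPM in the 4 against 147 to 189 CPM, and H2-Aa at 1269 to 1717 CPM against 1745 to 2250 CPM. The microfold marker Ctsh lay at 44.6 to 94.2 CPM against 119 to 201 CPM. These genes were named after their values were seen, and the share of all genes that divide so was not computed. The other medullary epithelial markers, Aire and Epcam among them, overlapped. Lysozyme Lyz2 made up 43.4% to 79.1% of the macrophage and monocyte sum. It lay between 49.5 and 64.1 CPM in the 4 libraries and between 113 and 262 CPM in the other 7. Other genes of the list did not divide in this way. C1qb was at 3.77, 3.16, 19.9 and 4.00 CPM in the 4 libraries and between 3.22 and 12.7 CPM in the other 7. Cd14 lay between 21.9 and 40.9 CPM in the 4 and between 25.8 and 51.4 CPM in the other 7. Of the 12 genes 8 were at 0 in at least 1 library. Fcgr1, at 0 in 6 libraries, had the most zeros of the 12, while Csf1r was at 0 in 1 library. Ccl9 was at 0, 3.11, 1.70 and 0.710 CPM in the 4 libraries and between 2.01 and 12.5 CPM in the other 7. Because the libraries fall into separate clusters, no r over all of them is given here. Within the 7 of the upper range Pearson r of Spib with the sum was -0.06 (exact permutation p = 0.849) and Spearman rho 0.29 (exact permutation p = 0.556, n = 7, two-sided). That division was made after seeing the values and narrows the range of both measures, so these values do not show whether Spib follows the sum. The plasmacytoid dendritic cell sum lay between 163 and 309 CPM in the 4 libraries and between 312 and 426 CPM in the other 7. Irf8, at 38.7 to 218 CPM, and Bst2, at 105 to 222 CPM, were the largest of that list in every library. Each overlapped between the 4 libraries and the other 7. Siglech of that list was at 0 in 8 libraries. The part of macrophages, monocytes or other cells in the Spib and Ccl9 levels was not tested.

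Relations among the 9 genes were of either sign. Over the 36 pairs Pearson r of log2(CPM + 1) ran from -0.59 to 0.79 with a median of 0.14 (n = 11 libraries). In all 54 relations were computed, the 36 pairs, each gene with Aire and each with the macrophage and monocyte sum, and 0 passed after Benjamini-Hochberg adjustment by Pearson r (smallest adjusted permutation p = 0.0724) or by Spearman rho (0.331). The smallest p of the 54 were those of Ccl9 and of Spib with the macrophage and monocyte sum (permutation p = 0.00286 and 0.00339, adjusted p = 0.0724 for each). In batch A r with the sum was 0.75 for Ccl9 and 0.85 for Spib (permutation p = 0.0649 and 0.0385, adjusted p = 0.590 for each). Without the 2 libraries farthest from the median of the sum r was 0.92 for Ccl9 and 0.85 for Spib. These values too run across the separate clusters. The closest of the 36 pairs was Spib and Ccl9 (r = 0.79, permutation p = 0.00402, adjusted p = 0.0724; rho = 0.62, permutation p = 0.0475, adjusted p = 0.331). Within the 7 libraries of batch A it had r = 0.81 (permutation p = 0.0277, adjusted p = 0.590), and without the 2 libraries farthest from the median of Ccl9 r was 0.50. Spib and Marcksl1 had r = 0.76 (permutation p = 0.00701, adjusted p = 0.0946). Spib and Aire had r = 0.62 (permutation p = 0.0397, adjusted p = 0.307; rho = 0.67, permutation p = 0.0273, adjusted p = 0.331), with r = 0.61 in batch A and 0.58 without the 2 libraries farthest from the median of Aire. Spib and Gp2, regulator and marker, and Spib and Sox8 were not among the pairs with an unadjusted permutation p under 0.05.

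**Figure D4:**
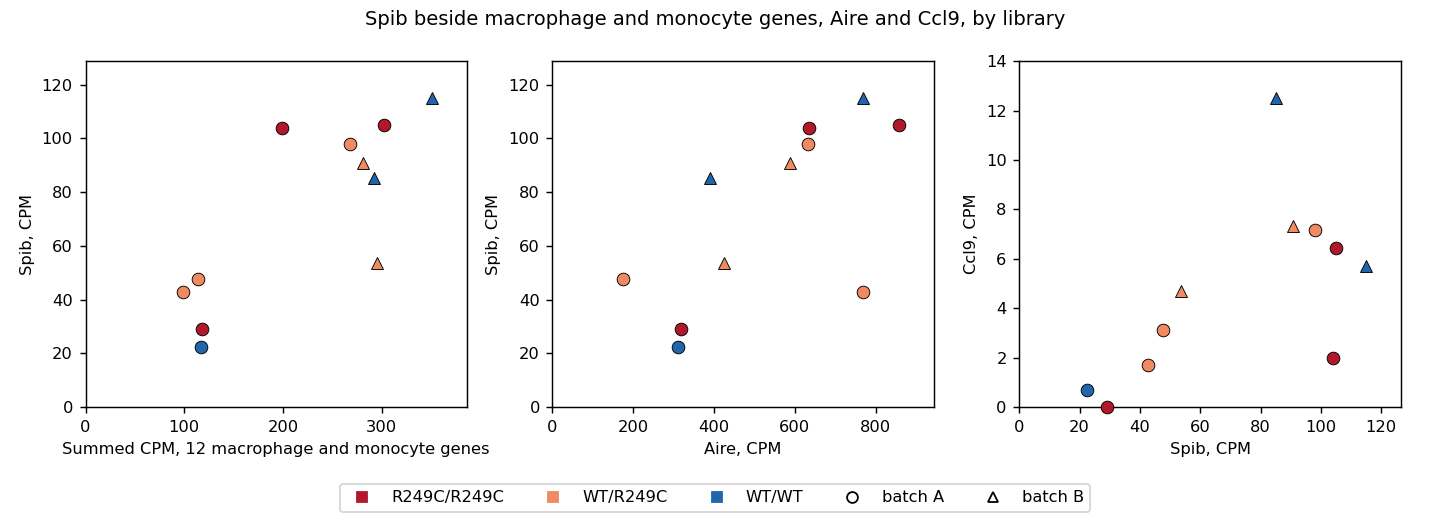
Spib in CPM against the summed CPM of 12 macrophage and monocyte genes (left) and against Aire in CPM (middle), and Ccl9 in CPM against Spib (right), 1 point per library (n = 11), coloured by genotype and shaped by batch. The 4 libraries with a sum of 99.0 to 118 CPM are those with the least Spib, at 22.4 to 47.8 CPM.

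The genes whose library pattern was most like that of Spib, by Pearson r of log2(CPM + 1) over 11 libraries among the 26980 genes tested, were Sdf2l1, an endoplasmic reticulum chaperone partner (r = 0.967, rho = 0.982), Shisa9, an auxiliary protein of glutamate receptors (0.963 and 0.873), the oxysterol receptor Gpr183 (0.951 and 0.881), the secreted Wnt modulator Sfrp5 (0.943 and 0.845) and profilin Pfn1 (0.942 and 0.882). Those most like Gp2 were Lamtor2, of the lysosomal Ragulator complex (0.890 and 0.827), the serpin Serpinb11 (0.853 and 0.818), the airway secretory protein Bpifa1 (0.832 and 0.855), Susd2, a membrane protein (0.829 and 0.800), and Snrnp27, a spliceosome component (0.825 and 0.745). No gene is on both lists. These values describe 11 libraries that share sorting and library preparation, and the highest of many correlations are large by selection.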

How the data were processed

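Whole-number counts per Ensembl gene and library, not normalized, were deposited by the authors for 11 libraries. The tools behind them were HISAT2, StringTie and FastQC with mouse build mm39, per the submitters' processing notes. Versions, the annotation release and whether counts were tallied reads or came from StringTie coverage are not given in the sources used here. Library preparation used a low-input RNA kit, per the labels' protocols, and column names of batch A carry the word trimmed, per the file headers, while those of batch B do not.

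Identifiers were matched to GENCODE M21 symbols (52073 of 56691 genes). CPM was computed over column totals. The test was the quasi-likelihood test of edgeR 4.0.16 under R 4.3.3 (robust, TMM, filterByExpr, two-sided, Benjamini-Hochberg over all genes tested, threshold 0.05): both comparisons with WT/WT and the batch contrast in 1 fit of all 11 libraries with a batch term, R249C/R249C against WT/R249C in the 6 batch A libraries. Fitted fold changes are thus batch-adjusted and CPM means are not. DESeq2 1.42.0 was an alternative. Intervals are at 95%. Relations used log2(CPM + 1) and 100000 permutations, or all orders where called exact.

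All 9 genes were named, with up to 4 further genes per list and comparison by smallest p and the 5 genes most like Spib and Gp2, leaving out gene models and sex-linked markers. Genes named outside this rule include Aif1, Cxcl16, Ctsh and some genes of the RANK and cell type lists. Members and lists were chosen with earlier results of these data known.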

Additional observations from a re-analysis of the deposited data

Results flagged for a closer look

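For Pglyrp1 the direction of WT/R249C against WT/WT differed between the batches. In batch A all 3 WT/R249C libraries (39.4, 17.4 and 55.8 CPM) lay above the single WT/WT library (1.76 CPM), with a log2 fold change of 4.35. In batch B both WT/R249C libraries (49.7 and 59.0 CPM) lay below both WT/WT libraries (68.8 and 60.2 CPM), with a log2 fold change of -0.21. A test of the difference itself, genotype by batch in the WT/R249C and WT/WT libraries, gave -4.51 on the log2 scale for batch B minus batch A, with an unadjusted edgeR p of 0.00244 and an adjusted p of 0.983 over 25519 genes, of which 0 passed. The batch A value rests on WT/WT replicate 1, and the batch B value on the 2 libraries with contradicting labels.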

How the results depend on the processing

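No alternative made any of the 9 genes pass in any of the 4 contrasts (smallest adjusted p = 0.278, Pglyrp1 between batches by DESeq2), and the count of genes called by edgeR was 0 in every setting and with any 1 library left out. DESeq2 called 408 genes for R249C/R249C against WT/WT, 274 for WT/R249C against WT/WT, 33 for R249C/R249C against WT/R249C and 199 between batches. Of 594 alternative values, 501 kept their sign and 93 did not; 9 of 36 gene contrasts kept it throughout, among them Anxa5 in both comparisons with WT/WT and Spib and Gp2 in R249C/R249C against WT/R249C. The cause was not tested. For R249C/R249C against WT/WT, log2 fold changes of the other sign were with DESeq2 size factors 0.00058 for Gp2, with no filter 0.015 for Gp2, by DESeq2 0.00083 for Gp2, with the 2 libraries of contradicting labels left out -0.31 for Tnfaip2, in batch A alone -0.30 for Tnfaip2, with no batch term -1.13 for Ccl9, -2.17 for Ccl6 and -0.22 for Pglyrp1, with those libraries counted as R249C/R249C -0.0078 for Marcksl1. For WT/R249C against WT/WT, log2 fold changes of the other sign were with no batch term -0.11 for Spib, -0.35 for Ccl9 and -1.27 for Ccl6, in batch B alone -0.42 for Spib, 0.34 for Gp2, -0.56 for Ccl9, -1.32 for Ccl6 and -0.21 for Pglyrp1, with the 2 libraries of contradicting labels left out -0.62 for Tnfaip2 and 0.13 for Marcksl1, with those libraries counted as R249C/R249C -0.23 for Tnfaip2, in batch A alone -0.61 for Tnfaip2 and 0.13 for Marcksl1. For R249C/R249C against WT/R249C, log2 fold changes of the other sign were with DESeq2 size factors 0.029 for Pglyrp1, with no filter 0.047 for Pglyrp1, by DESeq2 0.029 for Pglyrp1. For batch B against batch A, log2 fold changes of the other sign were with the 2 libraries of contradicting labels left out -0.39 for Gp2, -0.75 for Tnfaip2 and 0.09 for Anxa5, with those libraries counted as R249C/R249C -0.12 for Tnfaip2, -0.023 for Marcksl1 and 0.06 for Anxa5, with DESeq2 size factors 0.019 for Anxa5, with no filter 0.015 for Anxa5, by DESeq2 0.019 for Anxa5. With 1 library left out the log2 fold changes ran, in R249C/R249C against WT/WT, -0.013 to 1.30 for Spib, -4.65 to 0.33 for Sox8, -0.55 to 1.19 for Gp2, -0.091 to 1.04 for Tnfaip2, -1.14 to 0.93 for Ccl9, -2.10 to 3.75 for Ccl6, -0.12 to 0.24 for Marcksl1, -0.16 to 2.48 for Pglyrp1; in WT/R249C against WT/WT, -0.42 to 0.74 for Spib, -4.73 to 1.22 for Sox8, -0.94 to 0.35 for Gp2, -0.34 to 0.68 for Tnfaip2, -0.56 to 1.20 for Ccl9, -1.32 to 3.72 for Ccl6, -0.14 to 0.08 for Marcksl1, -0.21 to 2.17 for Pglyrp1; in R249C/R249C against WT/R249C, -1.23 to 0.54 for Sox8, -0.23 to 1.16 for Tnfaip2, -1.93 to 0.26 for Ccl9, -2.81 to 1.32 for Ccl6, -0.13 to 0.23 for Marcksl1, -0.33 to 0.31 for Pglyrp1; in batch B against batch A, -0.28 to 0.58 for Tnfaip2, -0.057 to 0.14 for Marcksl1, -0.05 to 0.064 for Anxa5. Same-numbered libraries did not pair (deviations from group means correlated at -0.15 to 0.198 over 9 pairs, and 3 of 9 libraries correlated best with their own number); with the replicate block 0 genes were called, and the reversed values were -0.13 for Tnfaip2 (WT/R249C against WT/WT), 0.40 for Marcksl1 (WT/R249C against WT/WT), 3.06 for Sox8 (batch B against batch A), -0.97 for Gp2 (batch B against batch A), 0.20 for Anxa5 (batch B against batch A), 0.10 for Pglyrp1 (R249C/R249C against WT/R249C). That block moved the median of all genes to 0.298, 0.325 and 0.49 for R249C/R249C against WT/WT, WT/R249C against WT/WT and the batch contrast. The relations gave 0 passes with a pseudocount of 0.1 and within batch A. For Spib with the macrophage and monocyte sum r was 0.82 over all 11 libraries and -0.06 within the 7 of the upper range; the first rests on separate clusters, and the second, chosen after seeing the data, on a range narrowed by that choice, so neither is a check of the other. Depth does not limit Marcksl1, Anxa5, Spib or Gp2, which had at least 2363 counts in every library.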
